A study of Mus musculus with 15 samples.

Results

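The lysyl oxidase family was followed through kidney fibrosis in mouse. Its 5 members are Lox, Loxl1, Loxl2, Loxl3 and Loxl4, and the platform annotation assigns 10 of 45037 probe sets to them, 3 to Lox, 1 to Loxl3 and 2 to each of the others. Lysyl oxidases are secreted copper enzymes that oxidise lysine and hydroxylysine residues of collagen and elastin to aldehydes, which then condense into the covalent crosslinks that stiffen a matrix. In fibrotic tissue this crosslinking is known for making collagen hard to degrade, and activated fibroblasts are a main source of the enzymes. Lox and Loxl1 carry a pro-peptide that is cleaved off and are closely tied to fibrillar collagen and elastic fibres, whereas Loxl2, Loxl3 and Loxl4 carry scavenger receptor domains before the same catalytic domain.

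All mice carried Col1a1-eGFPL10a, a transgene in which the collagen 1α1 promoter and enhancer drive a GFP-tagged ribosomal protein, so that ribosomes of collagen-producing cells can be pulled out of a lysate (translating ribosome affinity purification, TRAP). Cells that do not use this element are not tagged, and mice without the transgene were not analysed here. The arrays, 3 per group, were the bound fraction of sham-operated kidneys on day 0 (arrays 1 to 3) and of kidneys on day 2 (7 to 9) and day 5 (10 to 12) of unilateral ureteral obstruction, a block of urine flow that causes fibrosis, and the unbound fraction of obstructed kidneys on day 5 (13 to 15) and of sham kidneys on day 0 (4 to 6). The labels describe the bound RNA as that of kidney pericytes, namely medullary periarterial fibroblasts, the unbound RNA as that of kidney medulla, the strain as C57/129sv, sex as both and age as postnatal day 14 to 300. Whether arrays of one group stem from different animals is not stated, so p-values here cover only the spread among arrays, which may be technical.

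Levels are log2 normalised signals of 1 probe set, comparable between arrays but not between genes. Differences are log2 differences ± SE, and adjusted p-values come from 1 limma fit over 17433 genes with a threshold of 0.05. Folds are on the log2(value + 1) scale, which understates changes of dim genes. In bulk fractions such as these, fewer cells of a type and less RNA per cell cannot be told apart.

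Across genes, arrays within a group correlated at r = 0.919 to 0.973. Arrays 6, 9, 12 and 15 were brighter, with hybridization controls averaging 12114 to 12905 intensity units, where the other 11 arrays gave 4727 to 5864. The day 0 bound group holds none of these bright arrays and each other group holds 1. The Gapdh 5' to 3' signal ratio was 0.0269 on array 11 (bound, day 5) and lay between 0.178 and 0.583 elsewhere. The label of the bound fraction names pericytes and fibroblasts. Of 10 fibroblast and pericyte markers, 7 were higher in the bound than the unbound fraction of day 0 (median 2.01, where 4.76% of all genes were higher). Their summed signal was 33260 to 39710 in the bound fraction, against 8634 to 11740 unbound. These markers include Col1a1, whose own promoter drives the tag. The label does not name podocytes, but all 6 tested podocyte markers were also higher in the bound fraction of day 0 (median 4.65). Their summed signal was 20800 to 39370 in the bound fraction, against 3447 to 3982 unbound, where Nphs1 alone lay at the negative controls. Distal tubule and collecting duct markers were lower in 2 of 8 cases (median -0.95, where 4.11% of all genes were lower), with 18450 to 29250 bound and 27380 to 34470 unbound. The part of these cells in the day 0 differences below was not tested.

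**Figure D1:**
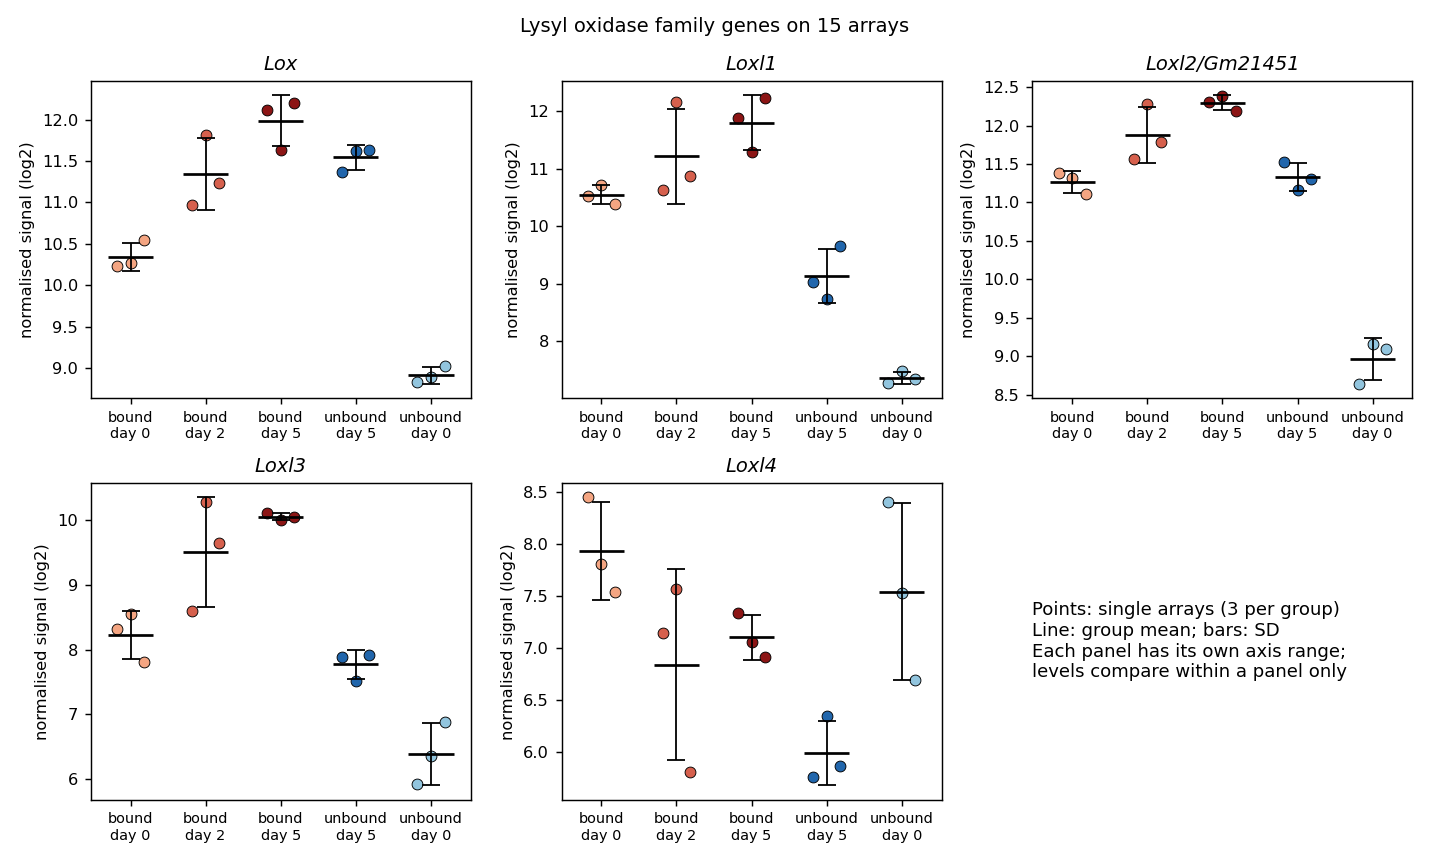
Normalised log2 signal of each family gene on single arrays (points, 3 per group), with group means and SD, for the bound fraction of days 0, 2 and 5 and the unbound fraction of days 5 and 0. Lox, Loxl1, Loxl2/Gm21451 and Loxl3 have their highest mean in the bound fraction of day 5 and their lowest in the unbound fraction of day 0, and Loxl4 has its highest mean in the bound fraction of day 0.

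Lox, the founding member, lies on chromosome 18 from 52516060 to 52529867 (gene coordinates here are those of GRCm38.p6). Its signal was 10.23, 10.27 and 10.54 on the bound arrays of day 0, 10.97, 11.82 and 11.23 on those of day 2 and 12.12, 11.63 and 12.21 on those of day 5. The unbound arrays gave 11.37, 11.63 and 11.63 on day 5, against 8.83, 8.88 and 9.03 on day 0. The day 0 unbound arrays were thus lowest, followed without overlap by the day 0 bound arrays. Above them, day 2 bound and day 5 unbound overlapped (11.34 ± 0.43 and 11.54 ± 0.15, SD, n = 3 each), and the day 5 bound mean was highest at 11.99 ± 0.31, with array 8 of day 2 above array 11 of day 5.

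Loxl1, which crosslinks tropoelastin and is needed for elastic fibre upkeep, lies on chromosome 9 from 58287723 to 58313212. Its bound arrays read 10.53, 10.72 and 10.39 on day 0, 10.62, 12.17 and 10.87 on day 2 and 11.88, 11.29 and 12.24 on day 5. In the unbound fraction it read 9.02, 8.73 and 9.65 on day 5, against 7.27, 7.47 and 7.33 on day 0. Every bound array of any day was above every unbound array. Within the bound fraction the day 2 arrays overlapped both neighbours, array 8 being the high one.

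Both Loxl2 probe sets are annotated to Loxl2 and to the predicted gene Gm21451 together, so their signal cannot be given to either and is called Loxl2/Gm21451. Loxl2 lies on chromosome 14 from 69608692 to 69695834. Gm21451 lies on the same chromosome from 69390417 to 69477453, with a gap of 131238 bases between them and almost the same length (87037 against 87143 bases for Loxl2). Loxl2 is known for acting on type IV collagen of basement membranes and on fibrillar collagen. The pair read 11.38, 11.32 and 11.10 on the bound arrays of day 0, 11.57, 12.28 and 11.78 on day 2 and 12.31, 12.38 and 12.19 on day 5. Its unbound arrays gave 11.53, 11.16 and 11.31 on day 5, against 8.65, 9.16 and 9.10 on day 0. Only the day 0 unbound arrays stood far from the rest: the day 5 unbound mean (11.33 ± 0.18) and the day 0 bound mean (11.27 ± 0.14) nearly coincided and their arrays overlapped.

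Loxl3, known from mouse mutants for roles in palate and spine development, lies on chromosome 6 from 83034205 to 83052566. Its single probe set read 8.31, 8.55 and 7.81 on the bound arrays of day 0, 8.60, 10.28 and 9.64 on day 2 and 10.11, 10.00 and 10.04 on day 5. The unbound arrays read 7.89, 7.51 and 7.91 on day 5, against 5.92, 6.36 and 6.88 on day 0. The 3 day 5 bound arrays were nearly equal (10.05 ± 0.06), while day 2 was spread widely (9.51 ± 0.85). Day 5 unbound and day 0 bound arrays overlapped in the middle of the order.

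Loxl4 lies on chromosome 19 from 42592279 to 42612806. It read 8.45, 7.80 and 7.54 on the bound arrays of day 0, 7.15, 7.57 and 5.81 on day 2 and 7.33, 7.06 and 6.91 on day 5. The unbound arrays read 5.76, 6.34 and 5.87 on day 5, against 8.40, 7.53 and 6.70 on day 0. All 3 obstructed unbound arrays were below all sham unbound arrays, the opposite order to the other 4 genes, while neighbouring groups in its order of means all overlapped. No promoter of Loxl1, Loxl2 or Loxl3 was matched in the RefSeq table used here. Lox was left out of this search, so whether the table holds its promoter was not assessed. The promoter of Loxl4 is shown because it was the only one matched in this search (GRCm38.p6, chr19:42612757-42613056, minus strand, 250 bases before to 50 after the start, written 5′ to 3′ along the gene, with GGGCGG in capitals).
Loxl4 promoter: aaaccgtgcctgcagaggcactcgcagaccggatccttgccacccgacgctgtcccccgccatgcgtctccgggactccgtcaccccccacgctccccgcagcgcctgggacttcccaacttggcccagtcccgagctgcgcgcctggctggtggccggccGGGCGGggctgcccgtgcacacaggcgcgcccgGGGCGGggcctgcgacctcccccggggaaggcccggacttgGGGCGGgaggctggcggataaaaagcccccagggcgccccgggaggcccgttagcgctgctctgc
The window is 75.0% G and C. Searched on both strands, it holds GGGCGG (the GC box) 3 times, a motif found in 35.7% of the 32851 promoters of the table. CAGAC, the Smad box core, occurs 1 time, against 49.6% of promoters with a match, and TATAAA (13.6% of promoters) and ACGTG, the core that hypoxia-inducible factors bind (19.6%), have no match in these letters. No motif searched overlaps another here, and a match is a description of the letters only.

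The bound against the unbound fraction of the sham kidney asks which family messages rode on tagged ribosomes before injury. Lox, Loxl1, Loxl2/Gm21451 and Loxl3 were higher in the bound fraction and Loxl4 did not pass, that is 4 of 5 genes, where 4.76% of all genes tested were higher. Loxl1 led with 10.55 ± 0.16 on the bound arrays, against 7.36 ± 0.10 on the unbound arrays (SD, n = 3 each), a 9.12-fold difference (3.19 ± 0.39, adjusted p = 0.000741). This difference was larger than that of 99.5% of genes. Loxl2/Gm21451 was 4.93-fold higher (2.30 ± 0.23, adjusted p = 0.000208). Loxl3 was 3.58-fold higher (1.84 ± 0.38, adjusted p = 0.013) and Lox 2.70-fold higher (1.43 ± 0.24, adjusted p = 0.0048). Loxl4 stood at 7.93 ± 0.47 bound and 7.54 ± 0.85 unbound (0.39 ± 0.48, adjusted p = 0.664), and its sign turned without array 6 (-0.035). The family median was 1.84, against -0.14 over all genes. Groups did not overlap for the 4 genes that passed, as for 36.7% of all genes. The Loxl3 call ended without array 2 or 4 (adjusted p = 0.0542 and 0.0663), and those of Lox and Loxl3 ended with arrays centred on their medians (0.0647 and 0.0553) or without the bright arrays (0.0562 and 0.0642), at differences of 1.23 to 2.07.

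On day 5 of obstruction, Loxl1, Loxl3 and Loxl2/Gm21451 were higher in the bound than in the unbound fraction, while Lox and Loxl4 did not pass (3 of 5 genes, where 6.24% of all genes were higher). Loxl1 was 6.36-fold higher, with 11.80 ± 0.48 on bound and 9.13 ± 0.47 on unbound arrays (2.67 ± 0.39, adjusted p = 0.00299). Loxl3 was 4.855-fold higher, with 10.05 ± 0.06 on bound and 7.77 ± 0.23 on unbound arrays (2.28 ± 0.38, adjusted p = 0.00472). Loxl2/Gm21451 was 1.95-fold higher (0.96 ± 0.23, adjusted p = 0.018). Lox differed by 0.44 ± 0.24 (adjusted p = 0.243) and Loxl4 by 1.11 ± 0.48 (adjusted p = 0.141), and both passed with array weights (0.0153 and 0.0283). For all 5 genes the bound arrays lay above the unbound arrays without overlap, as groups did not overlap for 42.7% of genes. Of 8 macrophage markers 0 were higher and 1 was lower in the bound fraction of day 5, their summed signal being 6437 to 15790 there, with Itgam at the negative controls, against 23540 to 27180 unbound. Distal tubule and collecting duct markers were lower in 4 of 8 cases (median -1.40, where 7.66% of all genes were lower), with 9088 to 12440 bound and 20350 to 23700 unbound. Endothelial markers were lower in 4 of 8 (median -1.74), with 4234 to 6230 bound and 7253 to 8788 unbound, and proximal tubule markers in 1 of 8 (median -1.64), with 2419 to 3947 bound and 8623 to 12480 unbound. Podocyte markers were higher in 3 of 6 (median 1.57), with 4917 to 12140 bound and 4345 to 4373 unbound, and fibroblast and pericyte markers in 4 of 10 (median 0.95), with 50920 to 53380 bound and 27080 to 29010 unbound. The part of these lists in the family's differences was not tested. The Loxl2/Gm21451 call ended without array 10, 14 or 15 (adjusted p = 0.0522 to 0.0759), and without the 4 bright arrays none of the 3 passed (0.0656 to 0.146) at differences of 2.76, 1.05 and 2.36 for Loxl1, Loxl2/Gm21451 and Loxl3. With median centring, which moved the median of all genes to 0.42 from 0.02, Lox differed by 1.14 (0.0502) and Loxl2/Gm21451 by 1.74 (0.0143), and with averaged probe sets Loxl2/Gm21451 by 2.23 (0.006).

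Whether enrichment differed between day 5 and day 0 was tested as an interaction, which passed for 0 of the 5 genes in limma (2 at an unadjusted p under 0.05) and for 0.0172% of all genes. The 2 were Loxl2/Gm21451 (-1.34 ± 0.32, adjusted p = 0.146) and Lox (-0.99 ± 0.34, adjusted p = 0.248). Loxl1 gave -0.52 ± 0.55, Loxl3 0.44 ± 0.54 and Loxl4 0.72 ± 0.68. With array weights Loxl2/Gm21451 and Lox passed (adjusted p = 0.00871 and 0.0438), as did 2013 of all genes against 3 without weights. With median centring Loxl2/Gm21451 gave -0.37 and Lox -0.089 (adjusted p = 0.735 and 0.938), while the median of all genes moved to 0.54 from 0.09, and with averaged probe sets Loxl2/Gm21451 gave -0.26 (0.873). The loss of the Lox call between the days is therefore not shown to be a change in enrichment by the unweighted fit.

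**Figure D2:**
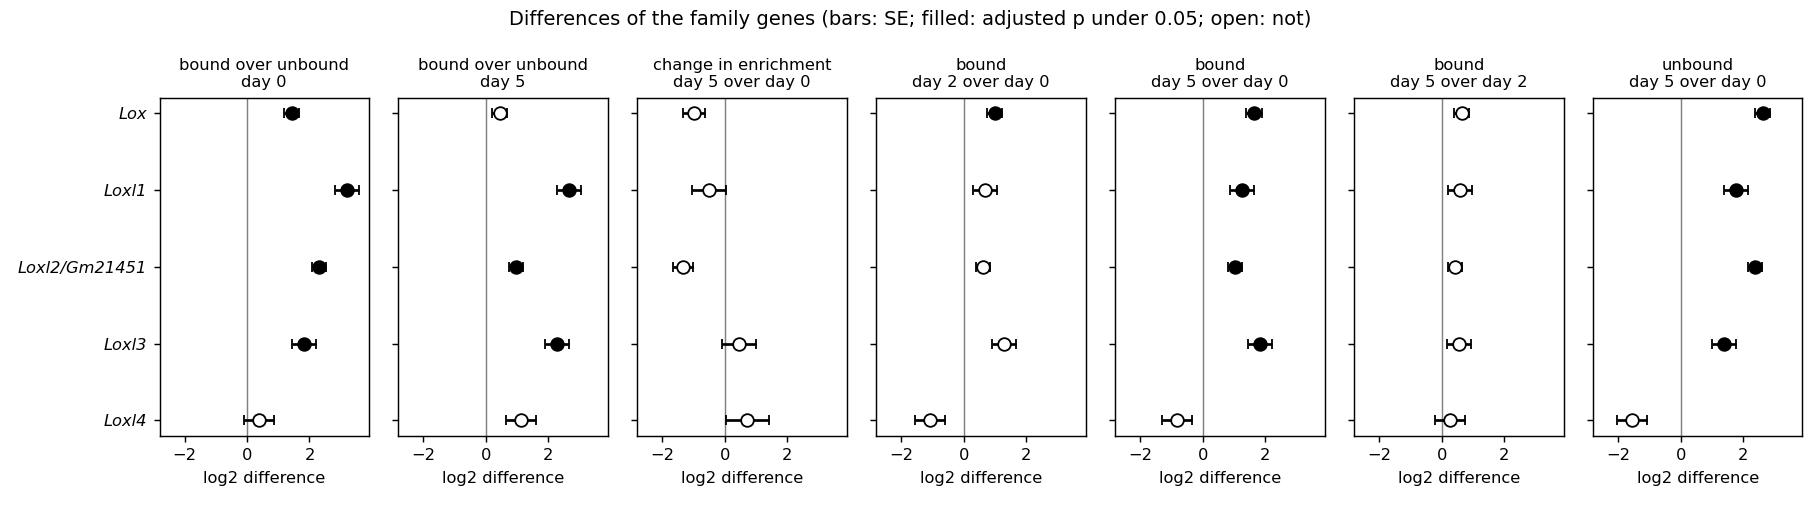
Log2 difference (x axis) of each family gene in the 7 comparisons, with SE bars; filled circles passed at an adjusted p under 0.05. Lox, Loxl1, Loxl2/Gm21451 and Loxl3 lie right of 0 in all 6 comparisons of 2 groups. Among those comparisons, Loxl4 lies left of 0 where day 2 or day 5 is set over day 0. For the change in enrichment it lies right of 0 (0.72).

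In the bound fraction, day 5 against day 0 asks how the ribosome-bound level of these messages changed with obstruction. Lox, Loxl1, Loxl2/Gm21451 and Loxl3 rose (4 of 5 genes, where 13.7% of all genes were higher), and Loxl4 did not pass. Loxl3 was 3.54-fold higher, at 10.05 ± 0.06 on day 5 and 8.23 ± 0.38 on day 0 (1.83 ± 0.38, adjusted p = 0.00583). Lox was 3.12-fold higher, at 11.99 ± 0.31 on day 5 and 10.34 ± 0.17 on day 0 (1.64 ± 0.24, adjusted p = 0.000776). Loxl1 was 2.39-fold higher (1.26 ± 0.39, adjusted p = 0.0344) and Loxl2/Gm21451 2.04-fold higher (1.03 ± 0.23, adjusted p = 0.00753). Loxl4 stood at 7.10 ± 0.21 on day 5 and 7.93 ± 0.47 on day 0 (-0.83 ± 0.48, adjusted p = 0.234), with the day 5 arrays all below the day 0 arrays. The family median was 1.26, against 0.12 over all genes. Groups did not overlap for any of the 5 genes, as for 40.2% of all genes. The Loxl1 call ended without array 1, 2, 3, 10 or 12 (adjusted p = 0.05995 to 0.112), with brightness as a covariate (0.057) or without the bright arrays (0.142). Loxl2/Gm21451 differed by 1.56 with median centring and by 1.61 with averaged probe sets, still passing (0.0131 and 0.0128).

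Other cell types' markers moved in the same fraction. Among all 17433 genes tested, 1709 were lower in this comparison and 2385 (13.7%) were higher. Podocyte markers fell in 6 of 6 cases (median -1.94), with a summed signal of 4917 to 12140 on day 5 and 20800 to 39370 on day 0. Proximal tubule markers fell in 7 of 8 cases, with 2419 to 3947 on day 5 and 12470 to 22020 on day 0, and Slc22a8 lay at the negative controls on day 5. Distal tubule and collecting duct markers fell in 8 of 8 cases (median -2.02), with 9088 to 12440 on day 5 and 18450 to 29250 on day 0. Endothelial markers fell in 4 of 8 cases (median -1.35), with 4234 to 6230 on day 5 and 8592 to 12020 on day 0. Macrophage markers rose in 3 of 8 cases, with 6437 to 15790 on day 5 and 2229 to 7257 on day 0, and Itgam at the negative controls on both days. Fibroblast and pericyte markers rose in 4 of 10 cases (median 0.78), with 50920 to 53380 on day 5 and 33260 to 39710 on day 0. The part of these shifts in the rise of the family was not tested.

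At day 2 the bound fraction showed the same signs with fewer calls. Lox was higher (1.00 ± 0.24, 1.99-fold, adjusted p = 0.0238), at 11.34 ± 0.43 on day 2 and 10.34 ± 0.17 on day 0. This made 1 of 5 genes, where 5.55% of all genes were higher. Loxl3 (1.28 ± 0.38, adjusted p = 0.0551), Loxl1 (0.67 ± 0.39, adjusted p = 0.315), Loxl2/Gm21451 (0.61 ± 0.23, adjusted p = 0.117) and Loxl4 (-1.09 ± 0.48, adjusted p = 0.187) did not pass. Groups did not overlap for Lox, Loxl2/Gm21451 and Loxl3, as for 21.3% of all genes. Array 8 had the highest signal of the 3 day 2 arrays for all 5 genes, and array 7 the lowest for all but Loxl4, for which array 9 was lowest. On day 2 proximal tubule markers were lower in 5 of 8 cases (median -2.73), with a summed signal of 3013 to 12270 on day 2 and 12470 to 22020 on day 0, and Slc22a8 at the negative controls on day 2. Distal tubule and collecting duct markers were lower in 3 of 8 (median -1.29), with 10330 to 19260 on day 2 and 18450 to 29250 on day 0. Of all 17433 genes tested, 631 were lower on day 2 than on day 0 of the bound fraction. Podocyte markers, none of which passed in limma (adjusted p = 0.0619 to 0.558), had a median difference of -1.13, with 10290 to 17770 on day 2 and 20800 to 39370 on day 0. Fibroblast and pericyte markers were higher in 2 of 10, macrophage markers in 1 of 8 and endothelial markers in 1 of 8. The part of these lists in the Lox difference was not tested. The Lox call ended without array 1, 2 or 8 (adjusted p = 0.0631 to 0.0747), with median centring (0.0799) or averaged probe sets (0.31). It also ended without the bright arrays (0.122), at a difference of 1.08. Loxl3 and Loxl2/Gm21451, in contrast, passed without array 7 (0.00487 and 0.0428).

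Day 5 against day 2 in the bound fraction passed for 0 of 5 genes in limma (1 at an unadjusted p under 0.05), where 0.591% of all genes passed. Lox, with 11.99 ± 0.31 on day 5 and 11.34 ± 0.43 on day 2, had the largest of the 5 differences (0.65 ± 0.24, adjusted p = 0.225), and it passed without array 8 (0.04). The others lay between 0.26 and 0.58, and day 5 and day 2 arrays overlapped for all 5 genes (groups did not overlap for 14.5% of all genes). The 3 comparisons of the bound days share arrays, so the values of day 2 and day 5 against day 0 are not independent of each other.

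In the unbound fraction, which holds RNA not captured with the tag, day 5 against day 0 asks how the remaining RNA changed. The labels call it kidney medulla RNA, and it also carried signal of proximal tubule markers, given below. Lox, Loxl2/Gm21451, Loxl1 and Loxl3 rose and Loxl4 did not pass (4 of 5 genes, where 6.36% of all genes were higher). Lox was 6.19-fold higher, at 11.54 ± 0.15 on day 5 and 8.91 ± 0.10 on day 0 (2.63 ± 0.24, adjusted p = 7.63e-05). Loxl2/Gm21451 was 5.16-fold higher, at 11.33 ± 0.18 on day 5 and 8.97 ± 0.28 on day 0 (2.37 ± 0.23, adjusted p = 9.14e-05). Loxl1 was 3.42-fold higher (1.78 ± 0.39, adjusted p = 0.0124) and Loxl3 2.61-fold higher (1.38 ± 0.38, adjusted p = 0.0382). Loxl4 stood at 5.99 ± 0.31 on day 5 and 7.54 ± 0.85 on day 0 (-1.55 ± 0.48, adjusted p = 0.0606), below all but 4.55% of genes by its difference. Groups did not overlap for any of the 5 genes, as for 45.7% of all genes. Of 10 fibroblast and pericyte markers 6 rose, with a summed signal of 27080 to 29010 on day 5 and 8634 to 11740 on day 0. Of 8 macrophage markers 5 rose, with 23540 to 27180 on day 5 and 6236 to 8872 on day 0, and Itgam at the negative controls on day 0. Proximal tubule markers fell in 2 of 8 cases, with 8623 to 12480 on day 5 and 15390 to 28860 on day 0, and distal tubule and collecting duct markers in 2 of 8, with 20350 to 23700 on day 5 and 27380 to 34470 on day 0. Of all 17433 genes tested, 678 were lower on day 5 than on day 0 of the unbound fraction. The part of these lists in the result was not tested.

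The Loxl3 call of the unbound fraction ended without array 4, 5, 13, 14 or 15 (adjusted p = 0.072 to 0.154) and the Loxl1 call without array 4 or 15 (0.0505 and 0.0527), and both ended with median centring (0.128 and 0.0708) or without the bright arrays (0.156 and 0.143). The difference of Loxl4 passed with a pseudocount of 16 (0.0421), a filter at the 50th percentile (0.0406), brightness as a covariate (0.0319), array weights (0.00794) or without array 6 (0.0365).

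The probe sets of a gene were compared in a separate fit over 39925 probe sets, all 10 of the family having passed the filter on low values. Of these 10, 7 were higher in the bound fraction of day 0 (2.53% of all probe sets were higher) and 5 in that of day 5 (3.28%). For day 5 over day 0, 5 were higher among bound arrays (7.57%) and 5 among unbound arrays (2.81%). For day 2 over day 0 in the bound fraction, 0 passed in limma (6 at an unadjusted p under 0.05, 2.84% of all probe sets higher). None was lower in these comparisons.

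For Loxl1, 1451978_at and 1436063_at gave alike values, with bound over unbound differences of 3.19 ± 0.40 and 2.94 ± 0.37 on day 0 and 2.67 ± 0.40 and 2.55 ± 0.37 on day 5. Those of Loxl2/Gm21451 disagreed in size on day 5. Probe set 1431004_at gave 0.96 ± 0.25 for bound over unbound on day 5, and 1452436_at gave 3.50 ± 0.60, both passing (adjusted p = 0.0405 and 0.0099). The dimmer 1452436_at was above the negative controls on 13 of 15 arrays, and its day 0 unbound mean lay at them. Its bound fraction of day 0 was at least 5.06-fold higher, and its unbound fraction of day 5 at least 2.05-fold higher, than the day 0 unbound fraction. These are lower bounds, so neither the rise in the unbound fraction nor the change in enrichment can be set against the values of 1431004_at.

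**Figure D3:**
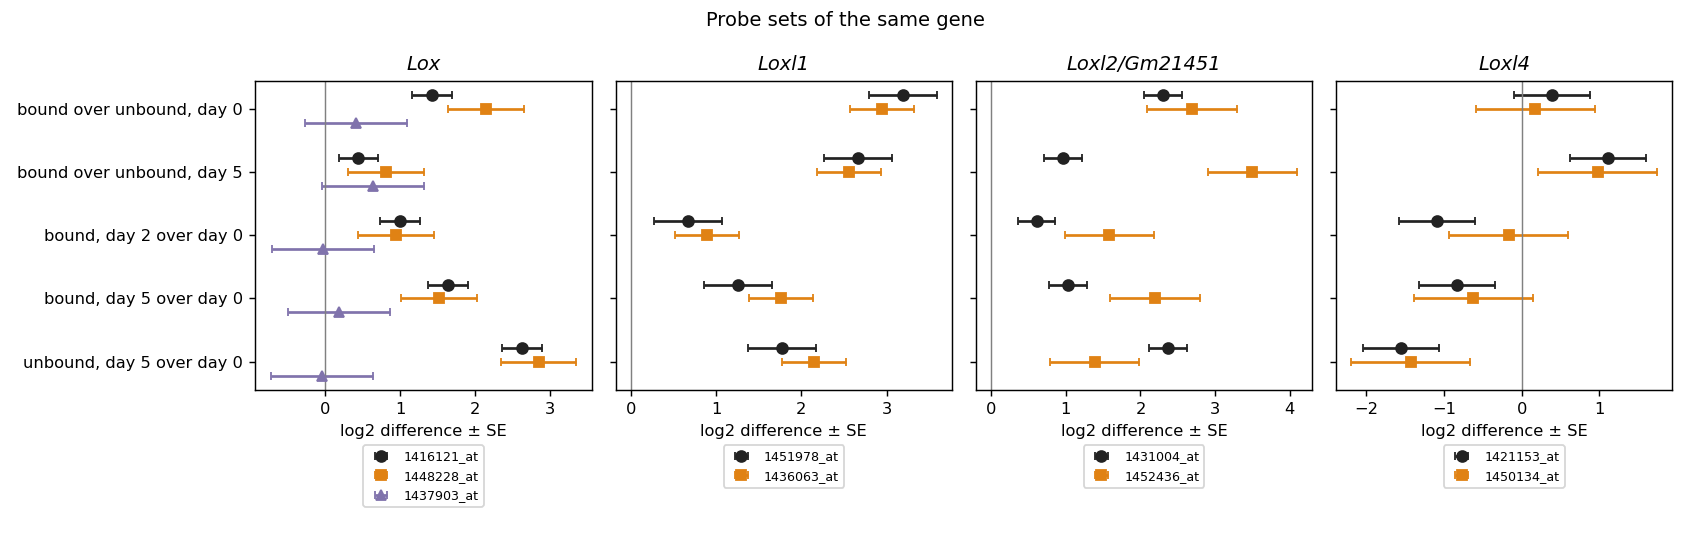
Log2 difference ± SE (x axis) of each probe set in 5 comparisons, for the 4 family genes with several probe sets; black circles mark the probe set used for the gene. The Loxl1 probe sets lie together, those of Loxl2/Gm21451 lie at 0.96 and 3.50 for bound over unbound on day 5, and 1437903_at of Lox, at the negative controls in every group, lies within 0.64 of 0. Points of 1452436_at that are set over the day 0 unbound fraction, where it lay at the negative controls, have no exact size.

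Lox has 2 probe sets designed from 1 transcript, 1416121_at and 1448228_at, and their signals did not move in step on all arrays. The log2 signal of 1448228_at relative to 1416121_at was -0.17, -0.35 and -1.28 on the day 0 bound arrays and -0.31, -0.42 and -1.20 on those of day 2. On day 5 it was -0.21, -1.70 and -0.27 on the bound arrays, and -1.20, -1.16 and -0.92 on the unbound arrays. It was -1.44, -1.23 and -1.27 on the unbound arrays of day 0. Among the bound arrays the low values were those of arrays 3, 9 and 11, while all 6 unbound arrays were low. Arrays 9 and 11 also had the lowest Gapdh 5' to 3' ratios (0.178 and 0.0269) and the lowest beta-actin 5' to 3' ratios (0.187 and 0.0623). The ratios of the unbound arrays, 0.331 to 0.583 for Gapdh, were not low, and the part of RNA quality in the probe sets' disagreement was not tested. For bound day 5 over day 0, 1448228_at differed by 1.52 ± 0.51 without passing (adjusted p = 0.0667), against 1.64 ± 0.27 with 1416121_at, which passed (adjusted p = 0.00229). Leaving out array 11 changed no call of the 5 genes. The third Lox probe set, 1437903_at, was above the negative controls on 4 of 15 arrays, and 1450134_at of Loxl4 on 10 of 15, so neither adds a measured change.

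Genes that act with the family were taken as lists. Of the 8 substrates, 7 collagen chains and elastin, all were higher in the bound fraction of day 0 (median 1.69) and 5 in that of day 5 (median 0.74), 6 rose in the bound (median 1.19) and 8 in the unbound fraction (median 2.15) from day 0 to day 5, and none was lower. The medians over all genes tested were -0.14, 0.02, 0.12 and 0.01 in these comparisons, and 4.76%, 6.24%, 13.7% and 6.36% of all genes were higher. The largest rise among them was that of Col5a2, a chain of type V collagen, by 3.39 ± 0.30 among bound arrays and 4.07 ± 0.30 among unbound arrays (adjusted p = 2.77e-05 and 1.87e-05). Eln, which codes for the elastin precursor, rose late: it was at 10.84 ± 0.29 on day 5, against 8.55 ± 0.78 on day 2 and 8.44 ± 0.34 on day 0 of the bound fraction, and passed for day 5 over day 2 (2.30 ± 0.37, adjusted p = 0.0159).

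Of 10 tested partners and processing enzymes, 4 rose in the bound fraction of day 5 (median 0.83) and 4 in the unbound fraction (median 0.39), with none lower. The medians over all genes were 0.12 and 0.01, and 13.7% and 6.36% of all genes were higher. Bmp1, the protease that cleaves the Lox pro-peptide, rose by 3.77 ± 0.28 in the bound fraction (10.15 ± 0.33 on day 5 and 6.37 ± 0.16 on day 0, adjusted p = 7.11e-06) and by 2.66 ± 0.28 in the unbound fraction (adjusted p = 0.000176). Postn, periostin, which binds Bmp1 and aids Lox activation, rose by 4.07 ± 0.58 in the bound fraction (adjusted p = 0.000652). Pxdn, peroxidasin, a crosslinker of type IV collagen, was higher in 5 comparisons, among them bound over unbound on day 0 (1.72 ± 0.21, adjusted p = 0.000866). Of 7 genes of lysine hydroxylation, 2 rose in each fraction on day 5 and none fell (medians 0.49 bound and 0.59 unbound), against the same shares of all genes. They were the lysyl hydroxylase Plod1 (1.34 ± 0.24 in the bound fraction, adjusted p = 0.00255) and the collagen galactosyltransferase Colgalt1 (1.59 ± 0.21, adjusted p = 0.000382).

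Of 7 tested enzymes of other crosslinking or of amine oxidation, 1 was higher in the bound than the unbound fraction on day 0 (Aoc3, 1.35 ± 0.39, adjusted p = 0.0499) and 1 was lower on day 5 (medians 0.12 and -0.14). The lower one was Aoc1, a copper amine oxidase that degrades diamines such as histamine, with 9.87 ± 0.32 bound and 11.97 ± 0.20 unbound (-2.10 ± 0.51, adjusted p = 0.02). On day 0 Aoc1 stood at 8.15 ± 0.89 bound and 8.90 ± 0.14 unbound. Between day 0 and day 5, 2 of the 7 enzymes rose in the bound fraction (median 1.43) and 3 in the unbound fraction (median 0.99), with none lower. Of all genes, 13.7% and 6.36% rose in these comparisons. Of the 11 copper handling genes none was higher in the bound fraction on either day and 1 was lower on each (medians -0.12 and 0.02), where 4.11% and 7.66% of all genes were lower. Atp7a, the pump that loads copper onto secreted lysyl oxidases, was lower on day 5 (-0.78 ± 0.24, adjusted p = 0.0474). From day 0 to day 5 the metallothioneins Mt1 and Mt2 rose in the bound fraction (1.01 ± 0.27 and 0.87 ± 0.20) and ceruloplasmin, Cp, in the unbound fraction (2.27 ± 0.40, adjusted p = 0.004). Of 6 Snail and mesenchymal transcription factors, 3 were higher in the bound fraction on day 0 and 4 on day 5 (medians 1.48 and 1.94), where 4.76% and 6.24% of all genes were higher. Snai1, a repressor of epithelial genes whose protein LOXL2 and LOXL3 bind in human cells, was higher by 2.84 ± 0.48 and 2.68 ± 0.48 (adjusted p = 0.0048 and 0.00612) but did not pass for day 5 over day 0 of the bound fraction (0.49 ± 0.48). In that comparison 1 of the 6 factors rose, and in the unbound fraction 0 rose, where 13.7% and 6.36% of all genes rose.

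**Figure D4:**
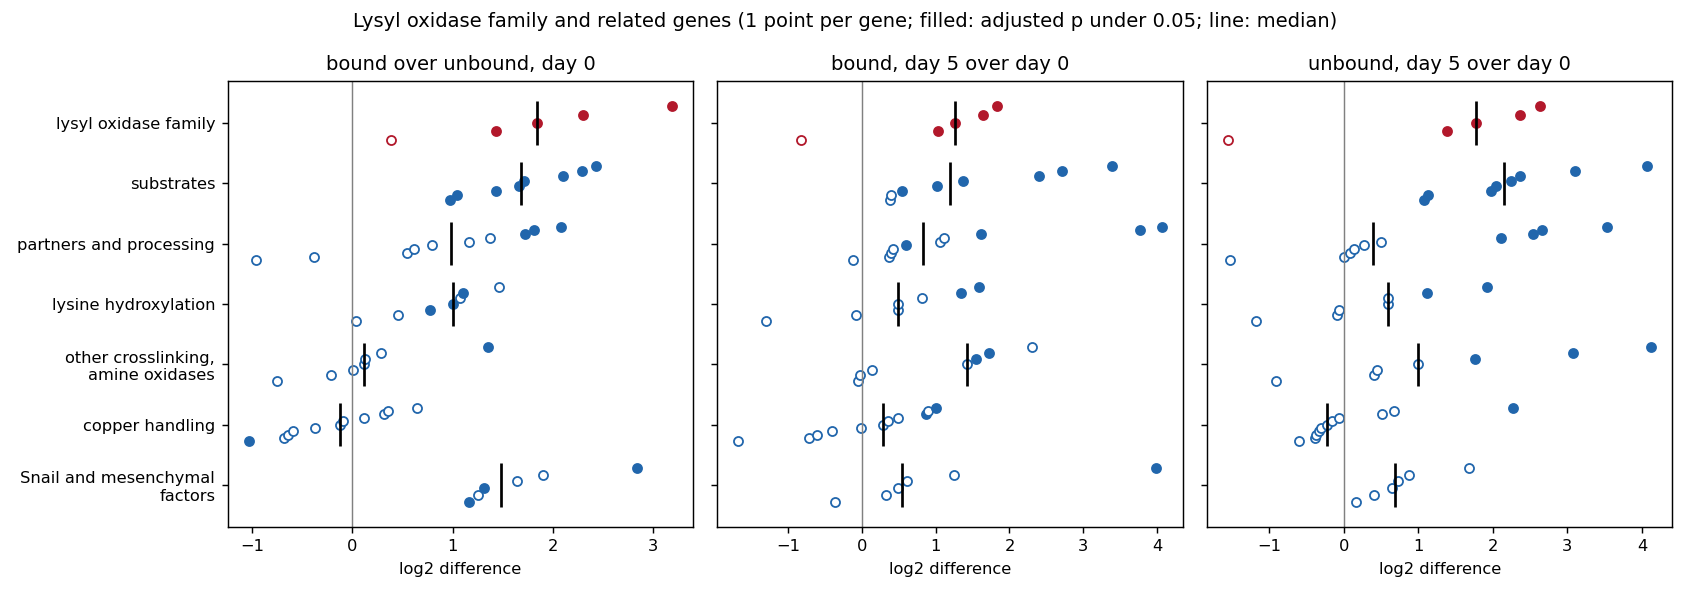
Log2 difference (x axis) of each tested gene of the family (red) and of 6 related lists (blue) in 3 comparisons, with the median of each list as a black line; filled points passed at an adjusted p under 0.05. The family and its substrates have medians of 1.84 and 1.69 for bound over unbound on day 0, against -0.12 for copper handling.

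Across the 15 arrays the 4 genes other than Loxl4 correlated with each other at r = 0.78 to 0.95, and Loxl4 with them at -0.46 to 0.02. These r values describe arrays that share groups of 3 and are given with no test. Of 15364 genes compared by the same measure, the nearest to Lox were Osmr, a receptor chain for oncostatin M, and the secreted glycoprotein gene Fstl1 (both r = 0.98), followed by Pxdn (0.977). Nearest to Loxl1 were Emilin1, an elastic fibre glycoprotein (0.985), the secreted protein gene Srpx2 (0.983) and Kdelr3, which retrieves proteins to the endoplasmic reticulum (0.982). Nearest to Loxl2/Gm21451 were the mesenchymal cadherin Cdh11 (0.98), smooth muscle actin Acta2 (0.979) and Col1a2 (0.978). Nearest to Loxl3 were Gpx7, a peroxidase of the endoplasmic reticulum (0.985), the glycosyltransferase gene B3gnt9 (0.984) and Map1a, of microtubules (0.975). For Loxl4 the values were lower, with the secretory carrier gene Scamp3 (0.91), Fkbp2 (0.905) and Ppp6r2 (0.882).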

How the data were processed

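Polysomal RNA was amplified with a NuGEN kit (1 round), biotin-labelled and measured on 15 one-colour Affymetrix arrays, per the labels' protocols. The authors deposited 1 linear intensity per probe set and array. How they summarised probes, subtracted background or scaled arrays is not given in the sources used here. Array medians ran from 16.4 to 198.7.

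Values were transformed as log2(value + 1) and quantile normalized. Of 45037 probe sets, 34945 matched 1 gene, 932 several and 9160 none. Each gene, or pair of genes sharing a probe set, was read from the probe set whose mean was highest, and 17433 of 18824 were kept, being above the 25th percentile on at least 3 arrays. Limma 3.58.1 (R 4.3.3) fitted 1 coefficient per group and 7 contrasts, with Benjamini-Hochberg adjustment over all genes. The scripts were tested on simulated data. Bacterial spike probe sets, 27 in number, served as negative controls, the brightest on each array setting its floor. The number of arrays limits the precision. Members, lists and settings were chosen with earlier results of these data known. Named genes are the members, the 3 genes nearest to each (clone names left out), and list members that passed. Figures used matplotlib 3.10.9.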

Additional observations from a re-analysis of the deposited data

How the results depend on the processing

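Counts of family genes that passed moved as follows. The filter at the 50th percentile and the pseudocount of 16 each gave 2 in place of 1 for bound day 2 over day 0. Averaged probe sets gave 0 there. Arrays centred on their medians gave 2 in place of 4 for bound over unbound on day 0, 0 in place of 1 for bound day 2 over day 0 and 2 in place of 4 for unbound day 5 over day 0. Array weights gave 5 in place of 3 for bound over unbound on day 5 and 2 in place of 0 for the change in enrichment. Without the 4 bright arrays, which leaves fewer arrays in 4 groups, the counts were 2 for enrichment on day 0, 0 on day 5, 0 for bound day 2 over day 0 and 2 for the unbound fraction. Leaving out single arrays gave 3 to 4 and 2 to 3 for enrichment on day 0 and day 5, 0 for its change, 0 to 3, 3 to 4 and 0 to 1 for bound day 2 over day 0, day 5 over day 0 and day 5 over day 2, and 2 to 5 for the unbound fraction. Of the 35 differences, none changed its sign or call with no filter. A sign turned for the change in enrichment of Loxl1 with median centring (0.13), for Loxl4 in bound day 5 over day 2 with averaged probe sets (-0.10), without the bright arrays (-0.16) and without array 9 (-0.25; leaving out single arrays gave -0.25 to 0.62), and for its enrichment on day 0 without the bright arrays (-0.034) and without array 6 (-0.035; single arrays gave -0.035 to 0.82). None of these values passed, and the cause of these shifts was not tested.

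Counts over all genes moved by more than 1.5 times as follows. Enrichment on day 0 gave 861 with median centring, 4487 with array weights and 353 without the bright arrays, in place of 1545. On day 5 it gave 6155 and 0 with the last pair of settings, in place of 2422. Its change gave 20 (50th percentile), 1 (median centring), 53 (pseudocount), 2013 (weights) and 5 (no bright arrays), in place of 3. Bound day 2 over day 0 gave 513 without the bright arrays, in place of 1599. Bound day 5 over day 0 gave 6366 with weights and 2234 without the bright arrays, in place of 4094. Bound day 5 over day 2 gave 244 (pseudocount), 22 (weights) and 3 (no bright arrays), in place of 103. The unbound fraction gave 5388 with weights and 616 without the bright arrays, in place of 1787. Leaving out single arrays gave 528 to 1171 and 878 to 1770 for enrichment on day 0 and day 5, 1 to 8 for its change, 1012 to 2827, 2536 to 3674 and 30 to 1320 for the bound comparisons, and 790 to 1234 for the unbound fraction. Median centring moved the share of higher genes among those called to 67.8% (44.9% in the setting used) for enrichment on day 5, 69.1% (58.3%) for bound day 5 over day 0 and 46.9% (62.1%) for the unbound fraction, and the median of all genes by over 0.1 in these comparisons (to 0.42, 0.35 and -0.22), in the change in enrichment (to 0.54) and in bound day 5 over day 2 (to 0.30). Array numbers run on from group to group, so they do not show whether bound and unbound arrays stem from the same lysate. No paired analysis was made, and the bound over unbound tests treat the fractions as independent.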
